A study of Homo sapiens with 14 samples.

Results

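The genes described here are 38 mitotic genes: the cyclins and CDK1 that drive entry into mitosis, the CDC25 phosphatases, the mitotic kinases, the ubiquitin ligase parts and protease that end mitosis, the spindle kinesins and assembly factors, and the factors that divide the cell. They were chosen by gene symbol, with earlier results of these data known. Shares of all genes given beside theirs therefore describe the set and do not test it. They make up 38 of the 57756 genes and 286 of the 195553 isoforms in the deposited tables. All 38 were found, and all 38 passed the filter of a mean of at least 1 FPKM (fragments per kilobase of transcript, relative to all mapped fragments) over the libraries, as did 14244 genes in all. The tables come from A549, a human lung carcinoma line, grown as an adherent culture, and hold 14 RNA-seq libraries in 7 groups of 2. In 4 groups the cells received U2AF1 siRNA and virus carrying U2AF1: the S34F mutant of the construct named v1, wild-type v1, the S34F mutant of the construct named v3, and wild-type v3. The design text calls the constructs 2 isoforms of U2AF1. The knockdown group received U2AF1 siRNA with the empty vector, the control siRNA group received control siRNA with the empty vector, and the untreated group received neither. The S34F and wild-type groups therefore share the knockdown and a virus. FPKM does not tell the viral U2AF1 from the cell's own. Whether the 2 replicates of a group were grown apart is not labelled, so the p-values measure the spread between these libraries, which may be technical.

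Cyclin A2 and the B cyclins switch on CDK1, CDC25 phosphatases remove the phosphates that hold CDK1 back, and Polo-like and Aurora kinases carry the signal to centrosomes, kinetochores and the midzone. The anaphase-promoting complex with CDC20 then marks securin and cyclin B for degradation, which frees separase to cut cohesin. Transcripts of most of these genes build up in G2 and mitosis under the DREAM and MuvB complexes and FOXM1, so that their level in a culture follows the share of cells in those phases. U2AF1 is the small subunit of the U2 auxiliary factor, which recognises the AG at the end of introns, and S34F is a recurrent mutation of it in lung adenocarcinoma and myeloid disease.

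The promoters of the genes are shown first, since MuvB complexes bind the CHR element and NF-Y binds the CCAAT box. RefSeq promoters, from 250 bases before to 50 bases after the start in GRCh38.p14, were given for 33 of the 38. None was given for TPX2, AURKA, FOXM1, UBE2C and BIRC5. A gene with several promoters was counted if any of them held the match. A CHR element, TTTGAA or TTTAAA on either strand, was in the promoter of 30 of these 33 (90.9%), against 27.9% of the 27305 genes with a promoter in the table. AURKB, CCNA2 and CDC25A held no CHR match. A CCAAT box on either strand was in 30 of 33 (90.9%), against 39.7% of all. Both were present in 26 of 33 (78.8%), against 11.2% of all. These are letter matches and can overlap. The promoters of CCNB2, a B cyclin, and of TOP2A, the topoisomerase described below, each held 2 CHR matches and 4 CCAAT matches, and capitals mark them. The CCNB2 promoter is at chr15:59104896-59105195 on the plus strand and the TOP2A promoter at chr17:40417847-40418146 on the minus strand.
CCNB2: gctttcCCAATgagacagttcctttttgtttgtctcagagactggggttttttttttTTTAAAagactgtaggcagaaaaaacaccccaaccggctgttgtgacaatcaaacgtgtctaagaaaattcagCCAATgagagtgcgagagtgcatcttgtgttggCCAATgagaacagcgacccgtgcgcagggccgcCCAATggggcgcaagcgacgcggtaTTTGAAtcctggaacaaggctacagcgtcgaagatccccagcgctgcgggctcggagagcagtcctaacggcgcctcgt
TOP2A: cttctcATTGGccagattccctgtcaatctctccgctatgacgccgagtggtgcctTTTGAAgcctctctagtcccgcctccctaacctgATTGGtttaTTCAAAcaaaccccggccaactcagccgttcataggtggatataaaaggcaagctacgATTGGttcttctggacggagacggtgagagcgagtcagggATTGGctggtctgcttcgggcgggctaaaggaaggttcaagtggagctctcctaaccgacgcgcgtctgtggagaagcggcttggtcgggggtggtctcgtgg

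In the libraries as a whole, U2AF1 went with the labels. It stood at 2114 to 3852 FPKM in the 8 libraries that received it, at 16.2 and 28.9 FPKM after knockdown, at 117 and 119 FPKM with control siRNA and at 128 and 143 FPKM in untreated cells. The epithelial markers KRT7, KRT8 and KRT18 led a list of 6 whose summed FPKM was 3825 to 4762. The rest of the list was far lower, with CDH1 at 8.71 to 34.8 FPKM, KRT19 at 10.2 to 76.8 FPKM and EPCAM at 2.20 to 5.53 FPKM. In every group CDH1 was lower and KRT19 higher in replicate 2. Of 6 fibroblast markers 1, COL1A1, reached 1 FPKM and DCN was listed at 0 throughout. Of 8 leukocyte and endothelial markers 7 were found by symbol. Of these 2 reached 1 FPKM, CD68 the higher, and the list summed to 16.0 to 62.4 FPKM. Relative depth, from the ratio of coverage to FPKM, ran from 0.798 to 1.20. A single short transcript held 33.1% of all FPKM in v1 S34F replicate 2 and another held 8.81% in knockdown replicate 1. The 13 mitochondrially encoded genes summed to 17287 FPKM in control siRNA replicate 2 and to 35959 to 63249 FPKM in the other libraries.

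Levels per transcript length differed widely among the 38 genes. CCNB1, the main B cyclin of mitosis, had the highest median over the 14 libraries, 227 FPKM, followed by TOP2A at 186 FPKM and PTTG1, securin, at 165 FPKM. CDC25A had the lowest, 8.81 FPKM, with the kinesin KIF15 at 9.08 FPKM and CDC25C at 12.5 FPKM. Reads of PTTG1 and KIF4A are uncertain, since PTTG1 has near-identical copies and KIF4A a retrocopy, KIF4B. Within groups, KIF18A, CDC25B, BIRC5 and ESPL1 were higher in replicate 2 in all 7 groups, and AURKA, PTTG1, DLGAP5 and CEP55 were lower in replicate 2 in all 7.

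S34F was compared with wild-type U2AF1 over both constructs, which asks how mutant and wild type differed in cells given U2AF1 siRNA and virus. U2AF1 stood at 2114 to 3852 FPKM in these libraries, against 117 and 119 FPKM with control siRNA. The wild-type libraries are thus no reference of normal U2AF1 level, and the cell's own U2AF1 there is not known. Of the 38 genes 5 fell and 0 rose: TOP2A, the topoisomerase that untangles chromosomes, CCNA2, cyclin A2, the kinesins KIF14 and KIF20B, and DLGAP5, a factor that stabilises spindle fibres. Among all 14233 genes tested, 1.27% fell and 0.583% rose at an adjusted p under 0.05 by limma with Benjamini-Hochberg adjustment. At an unadjusted p under 0.05, 12 of the 38 were counted, against 15.9% of all. In 10 of the 38 all S34F libraries were below all wild-type libraries and in 3 above, against 6.65% and 6.89% of all genes. The median log2 difference of the 38 was -0.06, against 0.02 over all genes tested. It was -0.0957 without v1 wild-type replicate 1, -0.0377 without v1 wild-type replicate 2 and -0.0392 without v3 wild-type replicate 2. The plot of differences by role shows these 5 apart from most of the other 33 in their panel. In bulk RNA, fewer cells in G2 or mitosis and less RNA per cell cannot be told apart.

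**Figure D1:**
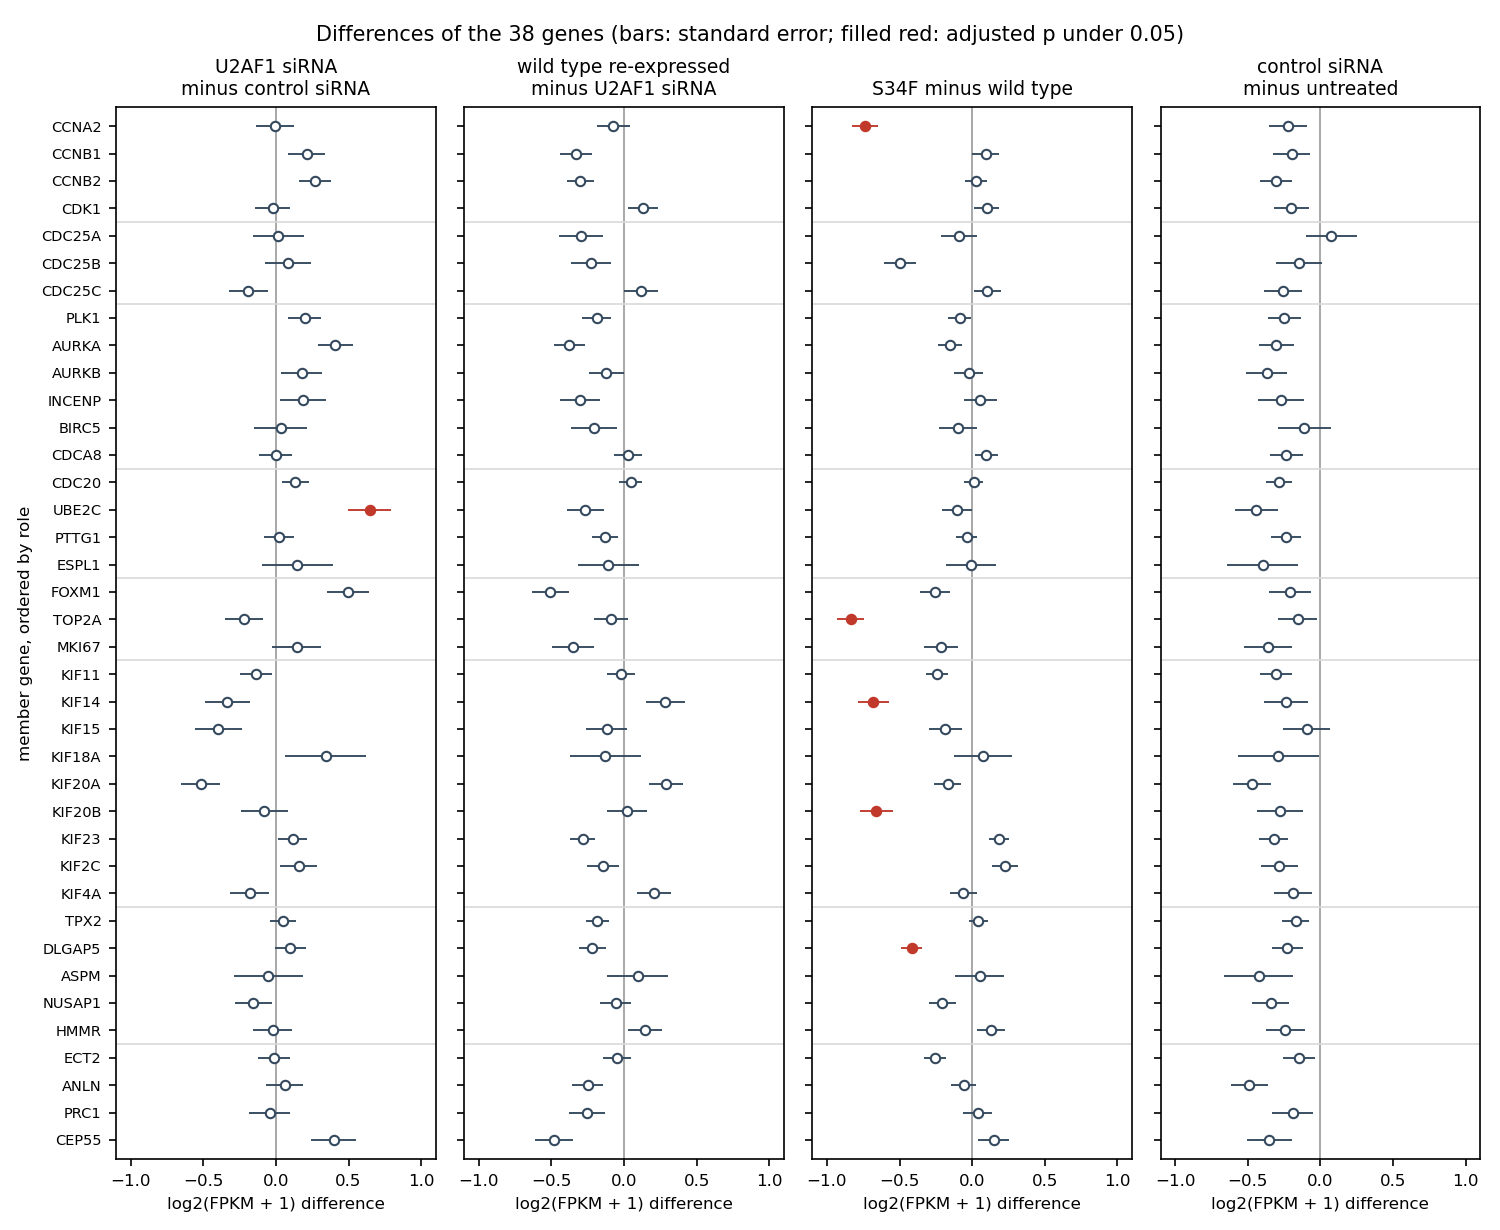
Differences in log2(FPKM + 1) of the 38 genes in 4 comparisons, ordered down the page by role, with grey lines between roles. Points are fitted differences, bars standard errors, and filled red points passed an adjusted p under 0.05: UBE2C after knockdown, and CCNA2, TOP2A, KIF14, KIF20B and DLGAP5 with S34F. In the panel of control siRNA minus untreated, 37 of 38 points lie below 0.

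TOP2A (chr17:38544768-38574202, GRCh37) had 103 and 84.7 FPKM in v1 S34F libraries, against 187 and 184 FPKM in v1 wild-type libraries. With v3 it had 129 and 100.5 FPKM in S34F libraries, against 184 and 185 FPKM in wild-type libraries. Every S34F library was below every wild-type library, and every wild-type library was below the knockdown at 205 and 189 FPKM, control siRNA at 228 and 231 FPKM and untreated cells at 241 and 271 FPKM. Its log2(FPKM + 1) difference was -0.84 (SE 0.09, adjusted p = 0.00294, limma).

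CCNA2 (chr4:122737599-122745087, GRCh37) was lowest with the v1 mutant. It had 19.4 and 16.5 FPKM in v1 S34F libraries, against 35.6 and 41.6 FPKM in v1 wild-type libraries, and 30.0 and 25.0 FPKM in v3 S34F libraries, against 37.3 and 36.2 FPKM in v3 wild-type libraries. The other groups held 38.4 to 47.9 FPKM, so the 4 S34F libraries were the lowest of the 14. The log2(FPKM + 1) difference was -0.74 (SE 0.09, adjusted p = 0.00436, limma). The other cyclins and CDK1 did not pass: CCNB1 differed by 0.09, CCNB2 by 0.02 and CDK1 by 0.10 on the same scale.

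Among the 9 kinesins 2 fell. KIF14, which acts at the midbody in cytokinesis, had 7.21 and 9.56 FPKM in v1 S34F libraries, against 14.8 and 14.8 FPKM in v1 wild-type libraries. With v3 it had 8.95 and 9.07 FPKM in S34F libraries, against 14.4 and 13.9 FPKM in wild-type libraries. The 4 S34F values were below the other 10, the knockdown libraries included at 13.1 and 10.4 FPKM. Its log2(FPKM + 1) difference was -0.68 (SE 0.11, adjusted p = 0.0119, limma).

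KIF20B, a kinesin of the midzone needed for cytokinesis, had 9.26 and 12.4 FPKM in v1 S34F libraries, against 18.6 and 18.1 FPKM in v1 wild-type libraries. With v3 it had 12.9 and 14.7 FPKM in S34F libraries, against 21.2 and 21.6 FPKM in wild-type libraries. The groups did not overlap, and the log2(FPKM + 1) difference was -0.66 (SE 0.11, adjusted p = 0.0174, limma). KIF23, the motor of centralspindlin, and KIF2C, which depolymerises kinetochore microtubules, lay the other way without overlap but did not pass, at 0.18 and 0.22 (adjusted p = 0.222 and 0.254, limma).

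DLGAP5 had 32.3 and 30.8 FPKM in v1 S34F libraries, against 48.6 and 46.3 FPKM in v1 wild-type libraries, and 39.0 and 33.8 FPKM in v3 S34F libraries, against 45.6 and 42.0 FPKM in v3 wild-type libraries. Its log2(FPKM + 1) difference was -0.42 (SE 0.07, adjusted p = 0.0209, limma). The other 4 spindle assembly factors, TPX2, ASPM, NUSAP1 and HMMR, did not pass.

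CDC25B, the phosphatase that starts CDK1 activation at the centrosome, had 68.3 and 77.0 FPKM in v1 S34F libraries, against 99.3 and 117 FPKM in v1 wild-type libraries. With v3 it had 78.9 and 84.7 FPKM in S34F libraries, against 101 and 121 FPKM in wild-type libraries. The difference of -0.50 (SE 0.11) had an adjusted p of 0.0523 by limma, and an adjusted p of 0.00247 with the replicate number as a block. With the block ECT2, the exchange factor that sets the cleavage furrow, was also called, at -0.26 (adjusted p = 0.0488, against 0.137 without the block), so that 7 of the 38 fell, against 4.71% of all genes in that fit. The mitotic kinases and passenger complex, the anaphase-promoting complex with securin and separase, and the cytokinesis factors had no member past the test without the block.

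**Figure D2:**
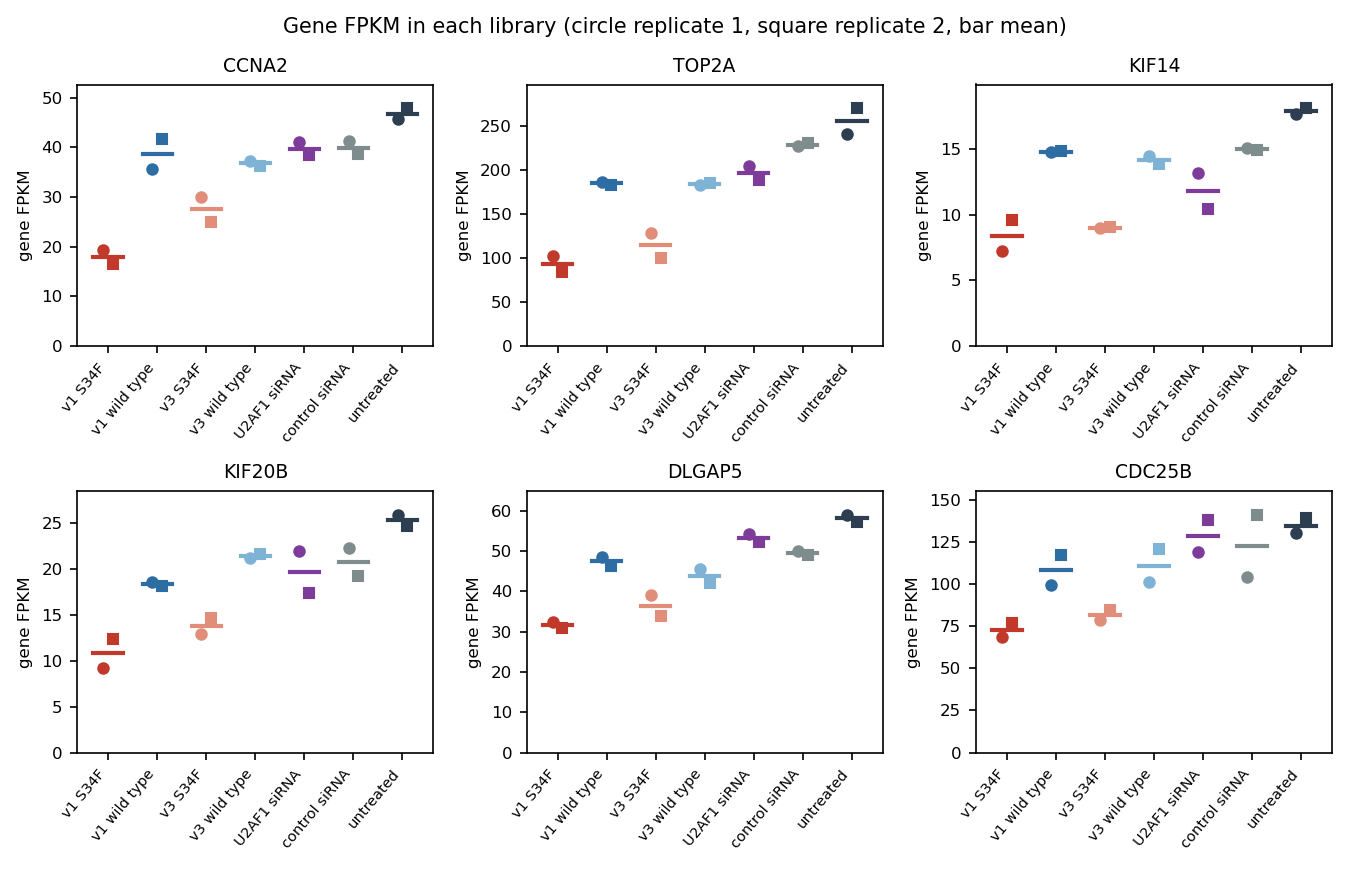
Gene FPKM of 6 mitotic genes in each library, on linear axes from 0. Circles are replicate 1, squares replicate 2 and bars the mean of 2, with the mutant left of its wild type. For TOP2A, CCNA2, KIF14, KIF20B, DLGAP5 and CDC25B the 4 S34F libraries lie below the 4 wild-type libraries.

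Leaving out libraries changed the calls but not the directions of the 5 genes. Without any 1 of the wild-type libraries, or without v3 S34F replicate 2, 2 of the 38 passed. Without v3 S34F replicate 1 or v1 S34F replicate 2, the library dominated by a short transcript, 4 passed, and without v1 S34F replicate 1 all 5 did. A fit of these 4 groups alone called only TOP2A. The summed mitochondrial transcripts were 38293 and 63249 FPKM in v1 S34F, against 37943 and 51139 FPKM in v1 wild type, and 38267 and 51695 FPKM in v3 S34F, against 37709 and 48396 FPKM in v3 wild type. Their part in the result was not tested.

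Within v1 alone 2 of the 38 fell, CCNA2 by 1.07 (SE 0.13) and TOP2A by 0.98 (SE 0.13) on the log2(FPKM + 1) scale, both at an adjusted p of 0.0213 by limma, against 0.148% of all genes that fell. In v1, 9 of the 38 had an unadjusted p under 0.05, against 9.93% of all. With the replicate block 6 of the 38 fell, among them CDC25B, KIF14, KIF20B and DLGAP5, against 1.61% of all genes in that fit. Without v1 wild-type replicate 1 or 2, or without v1 S34F replicate 2, 0 passed. Within v3 alone 0 of the 38 passed, against 0.0211% of all genes in either direction, and TOP2A came nearest at -0.69 (SE 0.13, adjusted p = 0.119, limma; 0.0359 with the block). With the block it was the 1 member that fell in v3, against 0.351% of all genes. In v3, 6 of the 38 and 6.44% of all genes had an unadjusted p under 0.05.

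The test of the difference between the constructs called 0 of the 38 genes and 0% of all genes by limma. It counted 1 of the 38 and 0.71% of all at an unadjusted p under 0.05. That gene was CCNA2, whose S34F difference was 0.65 (SE 0.19) less negative in v3 than in v1 (unadjusted p = 0.0048, adjusted p = 1). The wild-type constructs were compared with each other in the same fit. Wild-type v3 against wild-type v1 called 0 of the 38 and 0% of all genes by limma, with 0 of the 38 and 1.05% of all at an unadjusted p under 0.05, and ANLN was nearest at -0.25.

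**Figure D3:**
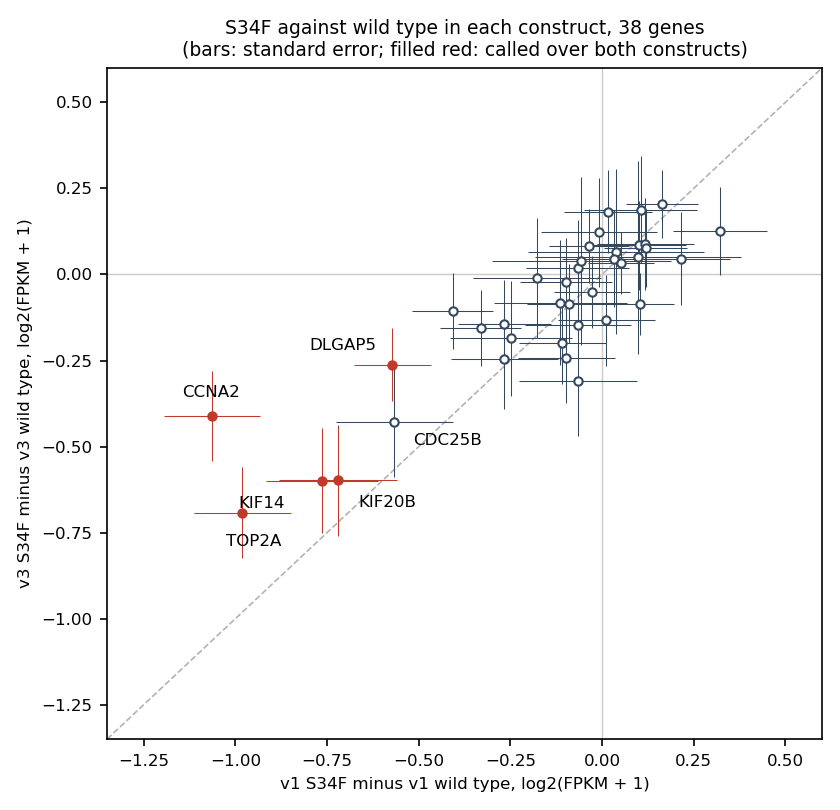
S34F minus wild type on the log2(FPKM + 1) scale in v1 (horizontal) and in v3 (vertical) for the 38 genes, with standard errors as bars. The constructs have no library in common, and the dashed line marks equal differences. The 5 genes called over both constructs are filled red, and CCNA2 lies at -1.07 in v1 and -0.41 in v3.

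U2AF1 knockdown was set against control siRNA to ask what loss of the splicing factor did. Of the 38 genes 1 rose, UBE2C, the ubiquitin-conjugating enzyme that starts chains for the anaphase-promoting complex, and 0 fell, against 0.787% of all genes that rose and 2.06% that fell. Of the 38, 7 had an unadjusted p under 0.05, against 18.9% of all. In 11 of the 38 both knockdown libraries were above both control siRNA libraries and in 8 below, against 24.7% and 26.7% of all genes. UBE2C had 190.0 and 191 FPKM after knockdown, against 141 and 105 FPKM with control siRNA. The untreated cells held 162 and 169 FPKM, so the control siRNA libraries were below them too. Its log2(FPKM + 1) difference was 0.64 (SE 0.15, adjusted p = 0.0429, limma). It was not called without control siRNA replicate 2 (adjusted p = 0.232), without knockdown replicate 1 (0.18) or replicate 2 (0.22), with median-ratio scaling (0.0556), with quantile normalization (0.0549), with no filter on low genes (0.0939) or in a fit of the 2 groups alone (0.191). The mitochondrially encoded genes summed to 39728 and 36114 FPKM after knockdown, against 35959 and 17287 FPKM with control siRNA. All 13 differed by more than 0, with a median of 0.64 and 0 called by limma, and control siRNA replicate 2 was the lower library both for them and for UBE2C. Their part in the UBE2C result was not tested.

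With the replicate number as a block, 4 of the 38 rose after knockdown and 1 fell, against 4.69% of all genes that rose and 7.12% that fell in that fit. Added to UBE2C were AURKA, the kinase of spindle poles, at 0.41 (adjusted p = 0.0141 with the block, 0.0958 without), FOXM1, the transcription factor of G2 genes, at 0.49 (0.0337 and 0.0989) and CEP55, which recruits the abscission machinery, at 0.40 (0.0381 and 0.198). KIF20A, a kinesin that carries passenger proteins to the midzone, fell by 0.52 (0.0247 and 0.0647). AURKA stood at 122 and 119 FPKM after knockdown, against 92.2 and 88.8 FPKM with control siRNA. FOXM1 stood at 66.4 and 76.8 FPKM after knockdown, against 44.1 and 57.5 FPKM, and CEP55 at 96.9 and 87.6 FPKM, against 71.2 and 68.2 FPKM. KIF20A stood at 31.4 and 26.7 FPKM after knockdown, against 42.2 and 41.7 FPKM. In all 4 the knockdown and control siRNA libraries did not overlap. AURKA, FOXM1 and CEP55 were highest in the knockdown libraries, apart from the first untreated library for CEP55. For KIF20A the untreated libraries, at 63.5 and 54.0 FPKM, were above the other 12.

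Re-expression of wild-type U2AF1, both constructs together, was set against the knockdown. The sample titles call it overexpression. U2AF1 stood at 2351 to 3313 FPKM in these wild-type libraries, against 117 and 119 FPKM with control siRNA. Its level was thus far above the control and not restored to it. This comparison shares the knockdown libraries with the one above, so the 2 sets of differences are not independent. By limma 0 of the 38 passed in either direction, against 1.04% of all genes that rose and 0.386% that fell. At an unadjusted p under 0.05, 12 of the 38 were counted, 11 of them lower, against 15.8% of all genes. In 16 of the 38 all wild-type libraries were below both knockdown libraries and in 4 above, against 16.3% and 18.1% of all genes. The median of the 38 was -0.13, against 0.02 over all genes. The 4 of smallest p were FOXM1 at -0.51 (SE 0.13, adjusted p = 0.0801), AURKA at -0.38 (SE 0.10, 0.111), CEP55 at -0.48 (SE 0.13, 0.114) and KIF23 at -0.28 (SE 0.09, 0.14). With the replicate block these 4 and CCNB2 fell (adjusted p between 0.0147 for CEP55 and 0.0486 for CCNB2), against 2.55% of all genes that fell in that fit. FOXM1 had 45.5 and 54.8 FPKM with wild-type v1 and 48.0 and 52.1 FPKM with wild-type v3, against 66.4 and 76.8 FPKM after knockdown. AURKA had 92.2 and 86.3 FPKM with wild-type v1 and 102 and 91.1 FPKM with wild-type v3, against 122 and 119 FPKM after knockdown. In both genes the wild-type libraries lay below the knockdown libraries without overlap.

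The same wild-type libraries were set against control siRNA. By limma 0 of the 38 passed, against 0.436% of all genes in either direction, and 5 of the 38 had an unadjusted p under 0.05, against 13.6% of all. In 13 of the 38 all wild-type libraries were below both control siRNA libraries and in 3 above, against 13.1% and 13.9% of all genes. KIF15, a kinesin that keeps spindle poles apart, came nearest at -0.52 (SE 0.14, adjusted p = 0.143). It had 7.22 and 8.86 FPKM with wild-type v1 and 9.62 and 9.30 FPKM with wild-type v3, against 11.96 and 13.9 FPKM with control siRNA. UBE2C (0.38, adjusted p = 0.219), TOP2A (-0.31, 0.272) and PRC1, the bundler of midzone microtubules (-0.30, 0.312), followed by limma. UBE2C and PRC1 rested on which control siRNA library was used. Without control siRNA replicate 1 they stood at 0.59 and -0.51, and without replicate 2 at 0.17 and -0.091. The 13 mitochondrially encoded genes all differed by more than 0 here too, with a median of 0.82 and 0 called, and their part was not tested.

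Control siRNA with the empty vector was set against untreated cells, as a measure of the procedure. By limma 0 of the 38 passed, against 0% of all genes in either direction. At an unadjusted p under 0.05, 13 of the 38 were counted, all lower, against 5.13% of all genes. Of the 38, 37 differed by less than 0, against 53.8% of all genes, and CDC25A was the exception. In 28 of the 38 both control siRNA libraries were below both untreated libraries, against 16.5% of all genes. The median of the 38 was -0.25, against -0.02 over all genes, and lay between -0.30 and -0.23 when any 1 of the 4 libraries was left out. All 9 kinesins, all 6 mitotic kinases and passenger genes, and all 5 spindle assembly factors were below 0.

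ANLN, the anillin that scaffolds the cleavage furrow, had 85.9 and 77.7 FPKM with control siRNA, against 128 and 103 FPKM in untreated cells (log2 difference -0.49, SE 0.13, adjusted p = 0.747, limma). KIF20A had 42.2 and 41.7 FPKM, against 63.5 and 54.0 FPKM (-0.47, SE 0.13, adjusted p = 0.822). KIF23 and CDC20, the activator of the anaphase-promoting complex, differed by -0.32 and -0.29 (adjusted p = 0.909 and 0.927). None of these 4 passed, though the libraries of each did not overlap. The mitochondrial transcripts were 35959 and 17287 FPKM with control siRNA, against 36465 and 57791 FPKM in untreated cells, and their part was not tested. Without control siRNA replicate 2, the library low in them, the median of the 38 was -0.30.

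CDKN1A, the p21 inhibitor of cyclin-CDK complexes, is given beside these levels. It stood at 133 to 186 FPKM in the 8 libraries with viral U2AF1, at 95.2 and 98.0 FPKM after knockdown, at 94.0 and 97.0 FPKM with control siRNA and at 52.9 and 42.6 FPKM in untreated cells. Wild-type re-expression raised it by 0.75 (SE 0.13, adjusted p = 0.0225, limma) over the knockdown and by 0.77 (adjusted p = 0.0353) over control siRNA. Between S34F and wild type it differed by -0.13 (adjusted p = 0.589), and between control siRNA and untreated cells by 0.99 (adjusted p = 0.207). Its part in the levels of the 38 was not tested.

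Other genes of the pathways moved in small numbers. Of 20 other kinases, phosphatases and CDK partners of G2 and mitosis, 2 fell with S34F against wild type, where 1.27% of all genes fell. PBK, a mitotic kinase, differed by -0.59 (adjusted p = 0.0117, limma), and BUB1B, a checkpoint kinase homologue at kinetochores, by -0.57 (adjusted p = 0.0232). PBK had 39.7 and 31.8 FPKM in v1 S34F, against 62.1 and 62.9 FPKM in v1 wild type, and 49.1 and 41.6 FPKM in v3 S34F, against 60.6 and 58.1 FPKM in v3 wild type. Of 17 other subunits, activators and inhibitors of the anaphase-promoting complex 1 fell, the subunit CDC16 (-0.56, adjusted p = 0.011). Of 12 DREAM and MuvB regulators 1 fell, RBL1, the pocket protein p107 (-0.67, adjusted p = 0.0354). Of 29 other spindle and cytokinesis genes, of 13 genes of G1 and CDK inhibition and of the 13 mitochondrially encoded genes, 0 were called with S34F. Within v1 alone PBK was also called (-0.80, adjusted p = 0.0486, limma), where 0.148% of all genes fell. After knockdown TROAP, a spindle protein, rose by 0.71 (adjusted p = 0.0406) and LIN9, a MuvB subunit, by 0.70 (adjusted p = 0.0247), where 0.787% of all genes rose. No other gene of these lists was called by limma after knockdown.

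Between control siRNA and untreated cells, 17 of the 20 kinases and partners and 25 of the 29 spindle and cytokinesis genes differed by less than 0, with medians of -0.24 and -0.19, against 53.8% of all genes. Of the 17 genes of the anaphase-promoting complex 11 did, with a median of -0.11, and of the 12 DREAM and MuvB regulators 10 did, with a median of -0.12. Of the 13 genes of G1 and CDK inhibition 6 did, with a median of 0.03. By limma 0 genes of these lists were called there.

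Isoform usage, the share of a gene's FPKM that an isoform holds, was tested for 105 isoforms of 32 of the 38 genes, among 41727 isoforms of 11666 genes. With S34F against wild type 5 isoforms of the 38 rose and 2 fell, against 0.436% of all isoforms that rose and 0.244% that fell by limma. They belong to ANLN, MKI67, KIF23, KIF20B and CCNB1. At an unadjusted p under 0.05, 34 of the 105 were counted, against 12% of all. Isoform FPKM are estimates that share reads between isoforms, and isoforms of 1 gene are not independent, since their shares sum to the whole.

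Where called isoforms differ by a cassette exon, the exon is printed here from GENCODE 29 transcripts in GRCh38, in capitals, with the 15 transcript bases on either side in lower case. For MKI67 only the first 60 bases of the exon are shown, with the bases before it. The ANLN exon, exon 9 of 24, lies at chr7:36417080-36417190 on the plus strand and keeps the frame at 111 bases. The MKI67 exon, exon 7 of 15, lies at chr10:128114928-128116007 on the minus strand and keeps the frame at 1080 bases. The CDC25A exon, exon 6 of 15, lies at chr3:48180721-48180840 on the minus strand and keeps the frame at 120 bases. The KIF23 exon, exon 5 of 22, lies at chr15:69421992-69422128 on the plus strand and shifts the frame at 137 bases. All 4 lie within the coding sequence.
ANLN: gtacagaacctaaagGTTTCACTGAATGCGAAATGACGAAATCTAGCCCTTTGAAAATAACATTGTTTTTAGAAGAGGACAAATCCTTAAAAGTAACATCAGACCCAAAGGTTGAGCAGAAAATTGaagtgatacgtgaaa
MKI67: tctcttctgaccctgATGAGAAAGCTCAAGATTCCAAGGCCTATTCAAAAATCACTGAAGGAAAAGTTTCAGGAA
CDC25A: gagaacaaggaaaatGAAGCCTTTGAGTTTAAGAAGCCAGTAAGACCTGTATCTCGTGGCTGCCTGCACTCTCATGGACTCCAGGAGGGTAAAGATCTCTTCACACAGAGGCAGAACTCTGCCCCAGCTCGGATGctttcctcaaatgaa
KIF23: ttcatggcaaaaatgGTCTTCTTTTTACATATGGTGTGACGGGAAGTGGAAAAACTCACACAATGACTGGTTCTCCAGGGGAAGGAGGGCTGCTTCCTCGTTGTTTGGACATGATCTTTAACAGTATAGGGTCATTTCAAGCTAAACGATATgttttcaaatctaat

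ANLN switched between 2 coding isoforms that differ by the exon printed above. The isoform that skips it (ENST00000396068) rose by 25.2 points of usage with S34F (adjusted p = 0.0177, limma), and the isoform that holds it (ENST00000265748) fell by 23.9 points (adjusted p = 0.0179). Inclusion of the exon, the FPKM of isoforms that hold it as a percent of those that hold or skip it, was 34.9% and 35.1% in v1 S34F, against 72.0% and 68.5% in v1 wild type. It was 49.5% and 45.0% in v3 S34F, against 70.3% and 73.5% in v3 wild type. After knockdown it was 59.7% and 52.6%, against 73.7% and 72.9% with control siRNA, and untreated cells held 73.4% and 72.3%. The 4 S34F libraries were the lowest, the knockdown libraries came next, and the other 8 lay within 68.5% to 73.7%. The exons were chosen after the usage calls were seen, so their inclusion is a description without a test.

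MKI67, the Ki-67 protein that coats mitotic chromosomes, moved the other way. The long isoform (ENST00000368654), which holds the 1080-base exon, rose by 20.5 points (adjusted p = 0.0327, limma) and the short isoform (ENST00000368653) fell by 23.5 points (adjusted p = 0.0295). Inclusion was 58.5% and 66.3% in v1 S34F, against 46.8% and 37.5% in v1 wild type, and 59.9% and 63.4% in v3 S34F, against 34% and 32.4% in v3 wild type. After knockdown it was 64.2% and 67.7%, against 60.5% and 57.8% with control siRNA, and untreated cells held 51.5% and 47.5%. The S34F libraries lay among the knockdown and control siRNA libraries, and the wild-type libraries were the lowest of all 14. Against the knockdown, wild-type re-expression lowered the long isoform by 28.5 points (adjusted p = 0.0345).

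KIF23 gained the isoform ENST00000561089, which skips the 137-base exon and is annotated as a target of nonsense-mediated decay. It rose by 10.2 points with S34F (adjusted p = 0.019, limma). It held 11.3% and 12.8% of KIF23 FPKM in v1 S34F, against 2.24% and 1.46% in v1 wild type, and 11.8% and 14.1% in v3 S34F, against 2.49% and 3.11% in v3 wild type. After knockdown it held 11.4% and 11.3%, against 1.53% and 1.91% with control siRNA. The S34F and knockdown libraries thus stood together above the other 8. The usage difference after knockdown was not called.

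KIF20B and CCNB1 each gained 1 isoform with S34F. ENST00000478929 of KIF20B rose by 11.3 points (adjusted p = 0.0327, limma), and ENST00000507798 of CCNB1 by 9.001 points (adjusted p = 0.0438). The KIF20B isoform held 12.4% and 12.9% in v1 S34F, against 0.0% and 1.9% in v1 wild type, and 15.6% and 12.7% in v3 S34F, against 4.7% and 1.7% in v3 wild type. The CCNB1 isoform held 18.1% and 16.0% in v1 S34F, against 7.3% and 7.0% in v1 wild type, and 13.1% and 14.8% in v3 S34F, against 6.3% and 5.4% in v3 wild type. In neither isoform did the S34F and wild-type libraries overlap. Both were called in these same libraries, so the lack of overlap adds no separate support. The KIF20B isoform was not called with an arcsine square root transform (adjusted p = 0.118), nor the CCNB1 isoform (0.0614). Without any 1 of the wild-type libraries, or without v3 S34F replicate 2, 0 of the 105 isoforms were called, without v1 S34F replicate 2 there was 1, and without v1 or v3 S34F replicate 1 there were 4.

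**Figure D4:**
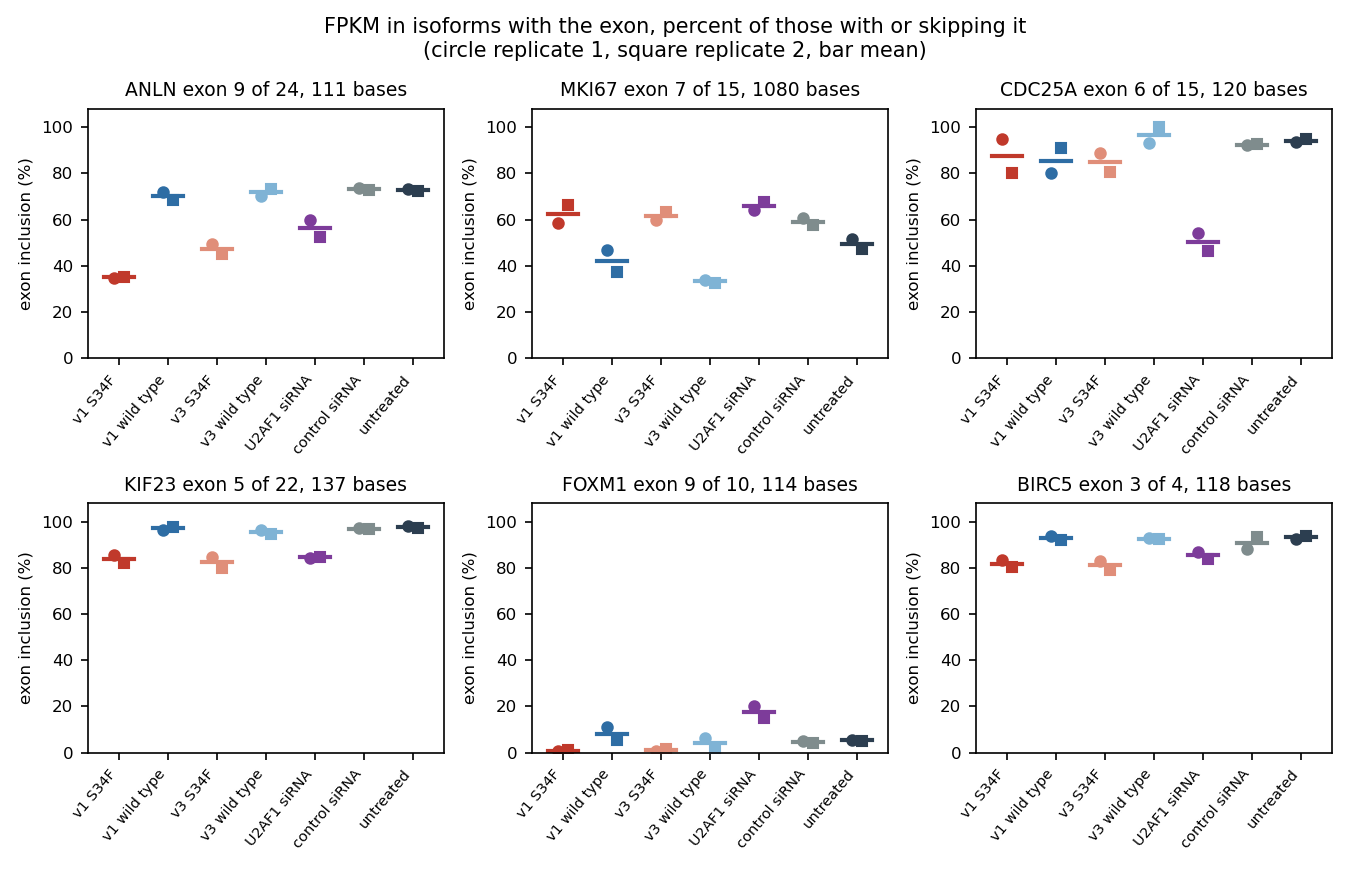
Inclusion of 6 exons in each library, as the percent of FPKM in isoforms that hold the exon among those that hold or skip it, on axes from 0. Circles are replicate 1, squares replicate 2 and bars the mean of 2. ANLN inclusion is lowest in the S34F libraries, MKI67 inclusion is lowest in the wild-type libraries, CDC25A inclusion is near 50.3% after knockdown only, and KIF23 inclusion is lower in the S34F and knockdown libraries.

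CDC25A, the phosphatase that acts from G1 to mitosis, changed after knockdown. Its isoform ENST00000351231, which skips the 120-base exon, rose by 39.6 points (adjusted p = 0.0418, limma; 0.0548 with the replicate block), the 1 called isoform of the 105, against 0.129% of all isoforms in either direction. At an unadjusted p under 0.05, 17 of the 105 were counted, against 10.3% of all. Exon inclusion was 54.3% and 46.3% after knockdown, against 92.3% and 92.7% with control siRNA. The other 10 libraries held 80.2% or more, so the knockdown libraries stood apart from all others. CDC25A had 8.83 and 11.1 FPKM after knockdown, against 10.1 and 9.51 FPKM with control siRNA, so the usage rests on a lowly expressed gene. Without any 1 of the 4 libraries compared the isoform was not called (adjusted p between 0.0838 and 0.194).

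Wild-type re-expression against the knockdown called 2 of the 105 isoforms, both lower, against 0.273% of all isoforms in either direction, 0.208% that fell and 0.0647% that rose. They were the exon-skipping CDC25A isoform (-38.4 points, adjusted p = 0.0187, limma) and the long MKI67 isoform given above. Its inclusion values for CDC25A were 80.2% and 91.0% with wild-type v1 and 93.1% and 99.998% with wild-type v3. Of the 105, 26 had an unadjusted p under 0.05, against 10.8% of all. Without v1 wild-type replicate 1, 2 were called, and without any other library compared 0 were. Control siRNA against untreated cells called 0 of the 105 by limma, against 0.00959% of all isoforms, with 1 of the 105 and 5.14% of all at an unadjusted p under 0.05. That isoform was KIF4A ENST00000374403, at 6.62 points, and at 3.43 points without untreated replicate 1.

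A pair of further exons, picked after the usage results were seen and outside the rule for naming isoforms, is described by inclusion values without a test. No isoform of FOXM1 or BIRC5 was called with S34F or after knockdown. Exon 9 of 10 of FOXM1, 114 bases at chr12:2861299-2861412 on the minus strand of GRCh38, was included at 0.7% and 0.9% in v1 S34F, against 10.9% and 5.5% in v1 wild type, and at 0.6% and 1.4% in v3 S34F, against 6.4% and 2.2% in v3 wild type. After knockdown it was included at 20.1% and 15.1%, against 5.0% and 4.1% with control siRNA. The S34F libraries were the lowest and the knockdown libraries the highest of the 14. Exon 3 of 4 of BIRC5, survivin of the passenger complex, 118 bases at chr17:78216664-78216781 on the plus strand, was included at 83.2% and 80.2% in v1 S34F, against 93.8% and 92.2% in v1 wild type. With v3 it was included at 83.1% and 78.9% in S34F libraries, against 92.7% and 92.3% in wild-type libraries. After knockdown BIRC5 inclusion was 87.0% and 84.0%, against 88.0% and 93.4% with control siRNA. With S34F against wild type the BIRC5 isoform that skips the exon (ENST00000374948) differed by 10.7 points (adjusted p = 0.057, limma) and was not called. Other uncalled isoforms shifted too. ENST00000260359 of NUSAP1 held 52.7% and 42.5% in v1 S34F, against 25.1% and 34.6% in v1 wild type. With v3 it held 27.7% and 31.8% in S34F libraries, against 12.4% and 15.4% in wild-type libraries.

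The share of a gene's FPKM in isoforms that GENCODE 29 types as targets of nonsense-mediated decay, retained introns or processed transcripts was tested for 20 of the 38 genes among 7464. With S34F against wild type 0 of the 20 passed by limma, against 0.0268% of all, and 6 of the 20 had an unadjusted p under 0.05, against 10.7% of all. KIF20B came nearest, at 12.5 points (SE 2.09, adjusted p = 0.0603), and passed with the replicate block (adjusted p = 0.0442) and with a minimum of 5 FPKM (0.0452). Its share was 13.8% and 13.7% in v1 S34F, against 0.0% and 1.9% in v1 wild type, and 17.6% and 13.5% in v3 S34F, against 5.0% and 1.9% in v3 wild type. These values lie close to those of its called isoform above, so the share and that usage are not independent results. KIF20A followed at 18.5 points (adjusted p = 0.232). After knockdown, after wild-type re-expression and between control siRNA and untreated cells 0 of the 20 passed, against 0% of all in each, and 0 of the 20 had an unadjusted p under 0.05, against 8.53%, 9.08% and 4.66% of all.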

How the data were processed

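RNA of 14 A549 libraries was processed by the authors with Trimmomatic 0.30 and TopHat2 2.0.12 on GRCh37, per the submitters' processing notes; no source used here names the quantifier or annotation. The deposited isoform tables hold FPKM and coverage for 195553 isoforms, per the file headers. Deposited coverage, a signal value, gave relative depth only; read counts are unknown, so no counting intervals are given. Isoform FPKM were summed per gene. limma 3.58.1 (R 4.3.3, trend) fitted log2(FPKM + 1) of 14233 genes with mean FPKM of at least 1 and no failed estimate as 7 group means, with Benjamini-Hochberg adjustment over all genes and a threshold of 0.05. A fold is on the log2(FPKM + 1) scale, which understates changes of low genes. Usage percent was fitted likewise for isoforms of 5 to 95% mean usage. Isoform types came from GENCODE 29, matched for 273 of the 286 isoforms. Exon inclusion used isoforms with GENCODE 29 structures. File starts were 0-based and 1 was added. Whether the authors counted by strand is not stated, so overlapping and antisense genes cannot be told apart.

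The 38 genes, lists and tests were chosen with earlier results of these data known. Full statistics go to members past the threshold or otherwise to the 4 of smallest p, and isoforms and list genes likewise. The FOXM1 and BIRC5 exons and the NUSAP1 isoform are outside this rule. Deviations of same-numbered replicates from their group means correlated in all 21 pairs of groups (r from 0.16 to 0.571, median 0.368). This pairing is seen in the data and is not given by the labels. The main fit has no block and leaves the pairing out, so a shift shared by same-numbered libraries counts there as spread. The fit with the number as a block is an alternative that takes it in. The fit was run on simulated data whose spread was independent between libraries. Those data lack the pairing, so they cannot check the fit under it. Alternatives were pseudocount, filter, scaling, isoform length, block, groups in the fit, transform and each library left out.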

Additional observations from a re-analysis of the deposited data

How the results depend on the processing

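Read counts are unknown, so depth is known only as a relative value, and its effect on the calls was not tested. With 2 libraries a group few calls outlast the loss of a library. In this paragraph "knockdown" is U2AF1 knockdown against control siRNA, "re-expression" is wild type against knockdown, and "return" is wild type against control siRNA. The last is a label only, since U2AF1 stood far above its control level there. Counts of genes or isoforms are those called, first of the 38 mitotic genes or their isoforms and then of all. The main counts are, in order for procedure (control siRNA against untreated), knockdown, re-expression, return, S34F, S34F in v1, S34F in v3, and v3 against v1 for the S34F effect and for wild type: 0, 1, 0, 0, 5, 2, 0, 0 and 0 of the 38, and 0, 405, 203, 62, 264, 25, 3, 0 and 0 of all genes. With the replicate block, knockdown gave 5 and 1681, re-expression 5 and 1070, return 547 of all, S34F 1136 of all, S34F in v1 6 and 309, S34F in v3 1 and 69, and procedure 2 of all; usage gave 0 of the 105 for knockdown and 1 of all for procedure, and the non-coding share gave 1 of the 20 and 81 of all for S34F and 8 of all for re-expression, and the block changed no other call by over 1.5 times. With no filter on low genes, knockdown gave 0 and 241, procedure 19, S34F in v1 51, S34F in v3 21, and the construct differences 15 for the S34F effect and 10 for wild type. In fits of the compared groups alone, procedure gave 1, knockdown 0 and 0, re-expression 20, return 1, S34F 1 and 39, S34F in v1 0 and 0, S34F in v3 0 of all, and the S34F effect between constructs 2. With a pseudocount of 0.1 the construct differences gave 1 each, and with median-ratio scaling or quantile normalization knockdown gave 0 of the 38. For usage, the main counts of all isoforms were 4 for procedure, 54 for knockdown, 114 for re-expression and 284 for S34F. The arcsine square root transform gave 0 for procedure, 0 of the 105 and 13 for knockdown, and 1 of the 105 and 51 for re-expression. A minimum of 5 FPKM gave 1, 112, 4 isoforms of the 38 genes and 235, and 540 in the same order. For the non-coding share it gave 3 for knockdown, 10 for re-expression and, for S34F, 1 of the 38 genes and 29. A usage range of 1 to 99% gave 19, 197, and 4 isoforms of the 38 genes and 307. These settings test other sets than the 105 isoforms and 20 genes of the main fit. With 1 library left out, all genes called ranged from 2 to 7 for procedure, 15 to 274 for knockdown, 5 to 57 for re-expression, 5 to 34 for return, 47 to 332 for S34F, 3 to 37 for S34F in v1, 2 to 7 for S34F in v3, 1 to 6 for the S34F effect and 1 to 3 for wild type between constructs. Of the 38, they ranged from 0 to 1 for knockdown, 2 to 5 for S34F and 0 to 2 for S34F in v1, and the median of the 38 from -0.14 to 0.00308 in v1, from -0.10 to 0.00345 in v3, from -0.0957 to -0.0377 over both constructs and from -0.022 to 0.11 for the S34F effect between constructs. Isoforms of all ranged from 7 to 27 for procedure, 5 to 59 for knockdown, 6 to 86 for re-expression and 7 to 419 for S34F; those of the 105 from 0 to 0 for knockdown, 0 to 2 for re-expression and 0 to 4 for S34F. Non-coding calls of all genes ranged from 0 to 6 for procedure, 0 to 9 for knockdown, 0 to 7 for re-expression and 1 to 25 for S34F. The ANLN non-coding share, -5.90 points in procedure, ranged from -13.4 points without untreated replicate 2 to 1.56 points without untreated replicate 1. Why the settings differ was not tested; leaving out libraries or groups leaves fewer samples to estimate the spread.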
